A study of Mus musculus with 10 samples.

Results

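The genes described here are 10 members of the NRF2 antioxidant pathway in mouse lung tumors: Nfe2l2, Keap1, Nqo1, Gclc, Gclm, Txnrd1, Hmox1, Srxn1, Gsr and Slc7a11. They were taken by symbol from a table of 39017 genes, and each symbol matched 1 row. To follow what tumors express when they grow without the glucose transporter Glut1, the study sequenced polyadenylated RNA of 10 libraries, 5 named Control and 5 named Glut1-KO. All mice were on a C57BL/6 background and carried, among other alleles of the KP model, a pair of floxed Trp53 copies, and tumors were started by intratracheal adenovirus with Cre under the promoter of CC10, a marker of airway club cells. Tissue was taken at 20 weeks and 1 day, dissociated and depleted of CD45-positive cells with magnetic beads. The 5 libraries labelled Glut1-KO came from KPG1 mice, homozygous for floxed Slc2a1, the gene of Glut1. The 5 Controls are labelled as heterozygous for that allele, whereas the design text speaks of wild-type Glut1, and the study's methods state that both kinds served as controls. All Controls were labelled male, and of the libraries labelled Glut1-KO replicates 1, 2 and 3 were female and replicates 4 and 5 male.

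NRF2, the protein of Nfe2l2, is a transcription factor that cells keep low by constant degradation. KEAP1 binds it and hands it to a ubiquitin ligase, and electrophiles or oxidants that modify KEAP1 let NRF2 build up, enter the nucleus and switch on genes through antioxidant response elements in their regulatory regions. Because this control acts on the protein, the mRNA level of Nfe2l2 need not follow the activity of the pathway, which is usually read from its targets. In human lung adenocarcinoma, mutations that release NRF2 from KEAP1 recur.

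The proximal promoters are shown because NRF2 acts through short elements of this kind. RefSeq promoter sequences (GRCm38.p6, 250 bases before to 50 bases after a start site) were at hand for 7 of the 10 genes, in 9 promoters of which 3 belonged to Txnrd1. The core of the antioxidant response element, TGACNNNGC or its reverse complement GCNNNGTCA, was found in 4 of the 9 member promoters and in 12.4% of the 32851 promoters of that length. The match of Srxn1 lay after its start site, and those of Nfe2l2, Gclm and Txnrd1 lay upstream, with the first matched base at -240, -134 and -92 counted from the start base as 0. The stretches below run 5′ to 3′ on the strand of the gene with the matched letters in capitals, from chr2:75704875-75704913 (minus strand), chr3:122245403-122245451 (plus strand) and chr10:82859094-82859142 (plus strand).
Nfe2l2: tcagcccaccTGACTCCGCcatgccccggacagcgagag
Gclm: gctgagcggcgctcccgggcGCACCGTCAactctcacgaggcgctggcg
Txnrd1: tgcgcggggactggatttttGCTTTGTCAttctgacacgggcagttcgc

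Other elements were chosen for a search after the promoter sequences were seen. The amino acid response element TGATGCAA (reverse complement TTGCATCA), read by ATF4 when amino acids run short, occurred in 0.895% of all promoters and in that of Slc7a11, where it stood 2 times in opposite orientation. The AP-1 site TGAGTCA (reverse complement TGACTCA), bound by Fos and Jun proteins, occurred in 5.2% of all promoters and 2 times in that of Srxn1. Of the 4 matches to the antioxidant response element core as searched (TGACNNNGC), 0 overlapped an AP-1 match. Sites that depart from that pattern were not searched for, so an overlap with such sites was not tested. The stretches come from chr3:50443638-50443694 (minus strand) and chr2:152105407-152105500 (plus strand), with capitals on the matches. A match says only that these letters are present.
Slc7a11: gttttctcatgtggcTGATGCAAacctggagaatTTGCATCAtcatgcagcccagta
Srxn1: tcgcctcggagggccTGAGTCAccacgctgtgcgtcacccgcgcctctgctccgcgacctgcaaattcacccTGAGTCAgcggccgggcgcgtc

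Library totals ran from 35250991 to 49760462 counts, and each member had at least 150 counts in every library. Levels are CPM (counts scaled to a common library size) after TMM scaling, which corrects for differences in RNA composition. Fold changes and p-values come from limma with voom over the 15922 genes that passed the count filter, all 10 members among them. The deleted gene did not separate all libraries by label. Slc2a1 was at 73.2 to 118 CPM in Controls, at 60.3, 42.5 and 34.6 CPM in the female Glut1-KO libraries, and at 92.4 and 103 CPM in the male ones, inside the Control range. The name Glut1-KO is therefore used for the label only. Which exons carry the loxP sites is not given in the sources used here, so reads from exons left in place could count. Defining alveolar type 2 markers were abundant in both groups, with a summed level of 28400 to 79500 CPM in Controls and 51800 to 72100 CPM in the 5 others. In such bulk samples, fewer cells of a type and less RNA per cell cannot be told apart. Nothing in the labels says that libraries came from separate animals, so p-values measure the spread between these libraries. A further number in the file names, which no label explains and which could be that of the animal, is shared by Controls 1, 2 and 5, by Controls 3 and 4, and by Glut1-KO replicates 4 and 5.

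Per kilobase of exon, Nfe2l2 and Gclc stood highest and Slc7a11 lowest. The median over the 10 libraries was 129 RPKM for Nfe2l2, 125 for Gclc, 56.4 for Gsr, 54.7 for Hmox1, 30.1 for Txnrd1, 12.6 for Srxn1, 11.4 for Gclm, 11.2 for Keap1, 6.09 for Nqo1 and 2.68 for Slc7a11. The ranges of every pair of neighbors in this order overlapped. Compared within libraries, Gclc exceeded Gsr and Txnrd1 exceeded Srxn1 in 10 of 10, whereas Nfe2l2 exceeded Gclc in 6, Gsr exceeded Hmox1 in 5 and Gclm exceeded Keap1 in 6. Within glutamate-cysteine ligase, the catalytic subunit Gclc was above the modifier subunit Gclm in every library, with ranges of 83.9 to 215 against 9.32 to 17.6 RPKM. These lengths take all annotated exons of a gene together, so a gene whose long exons are used in few transcripts would come out low, and Slc7a11 has the most exon bases of the members, 13922.

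No member passed the test for a difference between the libraries labelled Glut1-KO and the Controls. At an adjusted p under 0.05 limma called 0 of 10 members, against 0% of all genes tested. At an unadjusted p under 0.05 it was also 0 of 10 members, against 7.68% of all genes. The groups overlapped for each of the 10 members, whereas they did not overlap for 1.84% of all genes. DESeq2, which called 1.32% of all genes, called 0 of 10 members, and 0 had an unadjusted p under 0.05 with DESeq2 or with edgeR (10.8% and 8.85% of all genes). Of the 10 fold changes, 4 were above and 6 below 0, and the 95% intervals below give the sizes these libraries leave possible.

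The regulators Nfe2l2 and Keap1 were the steadiest of the members. Nfe2l2 (chr2:75675513-75704641, minus strand, GRCm38) was at 569, 505, 381, 454 and 575 CPM in Controls 1 to 5 and at 538, 439, 494, 486 and 460 CPM in Glut1-KO replicates 1 to 5. The means were 497 ± 81.3 and 484 ± 37.6 CPM (SD, n = 5 each), and all Glut1-KO values lay inside the Control range. The log2 fold change was -0.02 (SE 0.13, 95% interval -0.31 to 0.26, limma adjusted p = 0.978).

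Keap1, the adaptor that directs NRF2 to degradation (chr9:21229730-21239361, minus strand), was at 51.8, 49.7, 46.6, 56.7 and 53.7 CPM in Controls and at 48.9, 45.7, 53.0, 65.4 and 54.2 CPM in Glut1-KO replicates 1 to 5. Glut1-KO replicate 4 was the highest and replicate 2 the lowest of all 10, and the groups overlapped. Between them the log2 fold change was 0.04 (SE 0.12, 95% interval -0.22 to 0.29, limma adjusted p = 0.955). Over all 10 libraries the highest value of Keap1 was 1.43 times the lowest, and that of Nfe2l2 1.51 times. Keap1 shares 510 exon bases with the antisense gene Gm16754, which had 328 counts in all libraries together, and use of strand in the counting is not given in the sources used here.

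**Figure D1:**
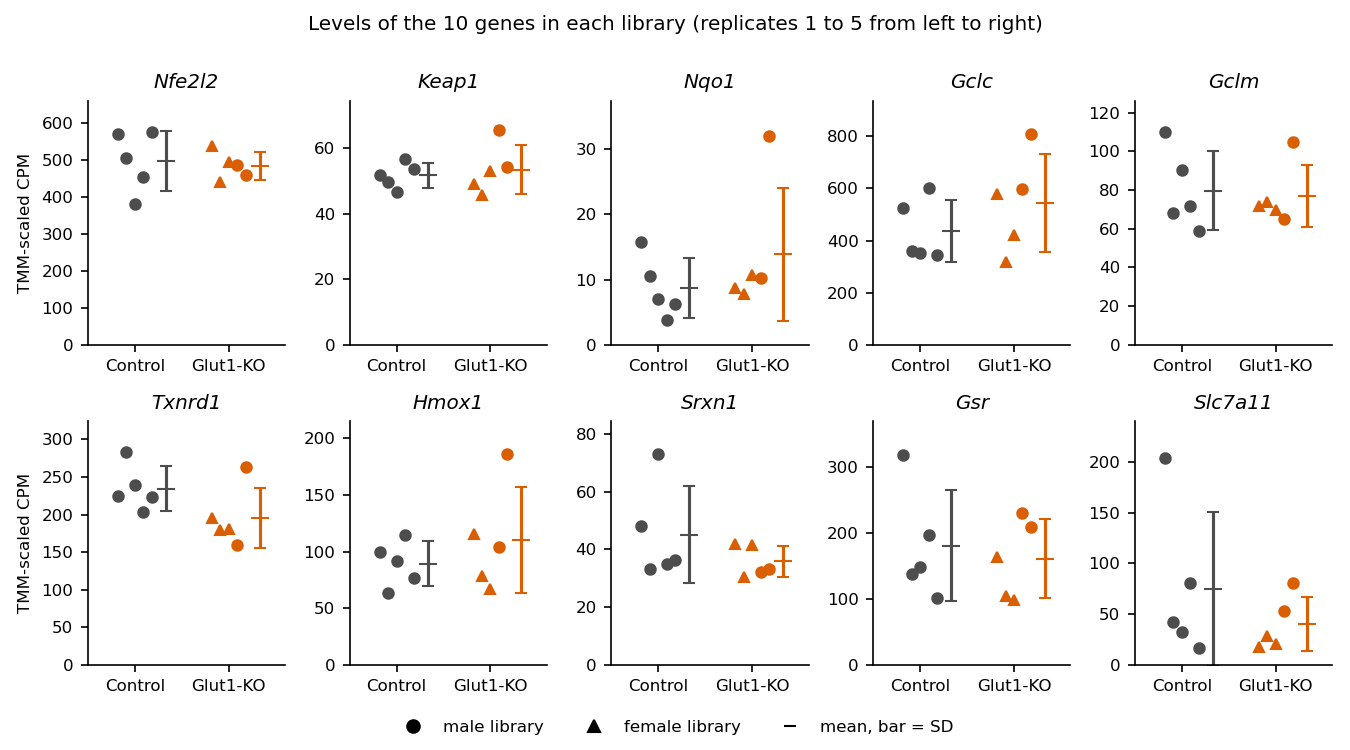
TMM-scaled CPM (vertical axis, from 0) of each gene in the 5 Control and 5 Glut1-KO libraries, replicates 1 to 5 from left to right, with the mean and SD beside them. Circles are male and triangles female libraries, and the groups overlap in all 10 panels (the lower SD bar of Slc7a11 in Controls ends at the axis).

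Gclc and Gclm encode the subunits of glutamate-cysteine ligase, the rate-limiting enzyme of glutathione synthesis. Gclc (chr9:77754535-77794485, plus strand) was at 524, 360, 354, 603 and 344 CPM in Controls and at 579, 316, 420, 599 and 811 CPM in Glut1-KO replicates 1 to 5. Both groups held high and low libraries, and Glut1-KO replicate 5 was above all others. The means were 437 ± 119 and 545 ± 189 CPM (SD, n = 5 each), and limma gave a log2 difference of 0.28 (SE 0.26, 95% interval -0.28 to 0.85, limma adjusted p = 0.811). It was 0.14 without Glut1-KO replicate 5 and 0.46 without replicate 2.

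Gclm (chr3:122245557-122270732, plus strand) was at 110, 68.1, 90.4, 71.5 and 58.6 CPM in Controls and at 71.6, 73.9, 69.9, 65.0 and 105 CPM in Glut1-KO replicates 1 to 5. Control 1 and Glut1-KO replicate 5 were the highest of their groups, and the other 4 Glut1-KO libraries lay close together. In limma the group difference was -0.03 on the log2 scale (SE 0.19, 95% interval -0.45 to 0.39, adjusted p = 0.981). Of its exons, 244 bases are also annotated to the pseudogene Gm6061 on the same strand, so reads there are uncertain between the pair.

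Slc7a11 encodes xCT, the cystine/glutamate exchanger that brings in the cystine from which glutathione is made. Slc7a11 (chr3:49892526-50443614, minus strand) was at 204, 41.9, 32.6, 80.8 and 16.4 CPM in Controls and at 17.7, 28.1, 20.3, 53.4 and 80.8 CPM in Glut1-KO replicates 1 to 5. It varied most of the members, with the highest library (Control 1) at 12.4 times the lowest (Control 5), although these Controls share a name number. The means were 75.2 ± 76.0 and 40.0 ± 26.8 CPM (SD, n = 5 each). The log2 fold change was -0.62 with an interval from -2.05 to 0.81 (SE 0.65, limma adjusted p = 0.842). The interval was the widest of the members. Without Control 1 the log2 fold change was -0.13, and without Control 5 it was -1.04.

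Gsr encodes glutathione reductase, which turns oxidized glutathione back to its reduced form with NADPH. Gsr (chr8:33652523-33698163, plus strand) was at 319, 138, 148, 197 and 102 CPM in Controls and at 163, 104, 98.6, 231 and 209 CPM in Glut1-KO replicates 1 to 5. Control 1 was again highest, and the female Glut1-KO libraries were below the male ones. Between the groups the log2 fold change was -0.14 (SE 0.33, 95% interval -0.87 to 0.59, limma adjusted p = 0.938), and it was 0.10 without Control 1 and -0.32 without Control 5.

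Txnrd1 and Srxn1 belong to the thioredoxin arm, the first as the selenoenzyme that reduces thioredoxin and the second as sulfiredoxin, which repairs over-oxidized peroxiredoxins. Txnrd1 (chr10:82833951-82897712, plus strand) was at 224, 283, 239, 204 and 223 CPM in Controls and at 195, 179, 181, 160 and 263 CPM in Glut1-KO replicates 1 to 5. Of the latter, 4 of 5 were below all Controls, and replicate 5 was above 4 of them. The means were 234 ± 29.9 and 195 ± 39.9 CPM (SD, n = 5 each), and the log2 fold change of -0.28 (SE 0.15, 95% interval -0.60 to 0.05) had the smallest p of the members, 0.0856 unadjusted and 0.699 adjusted with limma. A 2-sided exact permutation test over the 252 assignments of the libraries gave p = 0.103 (n = 5 each). Leaving out 1 library at a time moved it between -0.38 (without Glut1-KO replicate 5) and -0.21 (without Control 2 or without Glut1-KO replicate 4), and with male libraries only it was -0.19. Without Glut1-KO replicate 5 it had an unadjusted p of 0.00974 and an adjusted p of 0.366 (limma), in a fit where 1678 of 16126 genes had an unadjusted p under 0.05, and in the other 9 such fits the unadjusted limma p ran from 0.0672 to 0.191. With the 3 female Glut1-KO libraries alone against the Controls it was -0.33, with an unadjusted p of 0.0264 and an adjusted p of 0.311 (limma), in a fit where 2260 of 16430 genes had an unadjusted p under 0.05. The same contrast in a limma fit with all 10 libraries in 3 groups was -0.34, with an unadjusted p of 0.0733 and an adjusted p of 0.383.

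Srxn1 (chr2:152105516-152111376, plus strand) was at 48.0, 33.2, 73.1, 34.8 and 36.2 CPM in Controls and at 41.8, 30.6, 41.5, 32.2 and 33.1 CPM in Glut1-KO replicates 1 to 5. Control 3 stood above all others, and 3 of the 5 Glut1-KO libraries were below every Control. The log2 fold change was -0.27 (SE 0.22, 95% interval -0.75 to 0.21, limma adjusted p = 0.789), and it was -0.08 without Control 3 and -0.37 without Control 2.

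Nqo1 encodes the NADPH-dependent quinone reductase that serves as a common readout of NRF2. Nqo1 (chr8:107388225-107403206, minus strand) was at 15.7, 10.5, 6.97, 3.82 and 6.22 CPM in Controls and at 8.76, 7.73, 10.7, 10.2 and 32.0 CPM in Glut1-KO replicates 1 to 5. Glut1-KO replicate 5 stood above every other library, and the other 4 of its label lay inside the Control range. The means were 8.64 ± 4.62 and 13.9 ± 10.2 CPM (SD, n = 5 each), and limma gave a log2 difference of 0.62 (SE 0.45, 95% interval -0.38 to 1.62, limma adjusted p = 0.772). Without that library the fold change was 0.25, and without Control 1 it was 0.86.

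Hmox1 encodes heme oxygenase 1, which breaks heme down to biliverdin, iron and carbon monoxide. Hmox1 (chr8:75093621-75100589, plus strand) was at 99.4, 63.6, 92.2, 115 and 77.0 CPM in Controls and at 116, 78.5, 66.9, 104 and 186 CPM in Glut1-KO replicates 1 to 5. Only Glut1-KO replicates 1 and 5 were above all Controls, replicate 1 by a narrow margin. The log2 fold change was 0.24 (SE 0.26, 95% interval -0.34 to 0.82, limma adjusted p = 0.851), and it was 0.04 without replicate 5 and 0.40 without replicate 3.

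**Figure D2:**
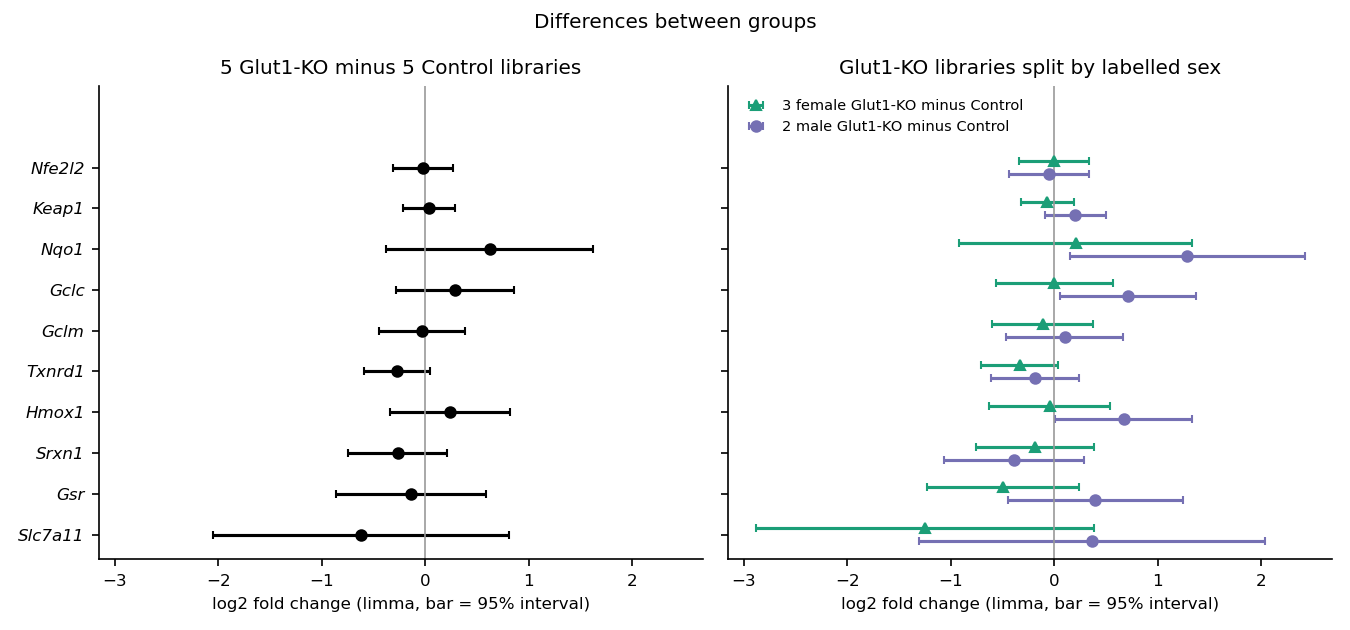
Log2 fold change against the 5 Controls (horizontal axis) with its 95% interval from limma, for all 5 Glut1-KO libraries at left and for the 3 female and 2 male ones at right. At left all 10 intervals hold 0, from the narrow ones of Nfe2l2 and Keap1 to that of Slc7a11 from -2.05 to 0.81.

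The members differed in how far libraries of the same group lay apart. The within-group SD of log2 CPM was 0.16 for Keap1 and 0.19 for Nfe2l2, at the percentiles 8.1 and 16.1 of all genes tested, whose median was 0.35. It was 0.23 for Txnrd1, 0.32 for Gclm, 0.37 for Srxn1, 0.45 for Gclc and 0.47 for Hmox1. The most spread members were Gsr with 0.59, Nqo1 with 0.80 and Slc7a11 with 1.18, at the percentiles 72.7, 82.9 and 92.7. Libraries that share a name number could lie as far apart as any. Among Controls 1, 2 and 5 the highest Slc7a11 value was 12.4 times the lowest, and between Glut1-KO replicates 4 and 5 Nqo1 differed 3.15-fold, whereas within each set Nfe2l2 differed at most 1.19-fold and Keap1 at most 1.22-fold.

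**Figure D3:**
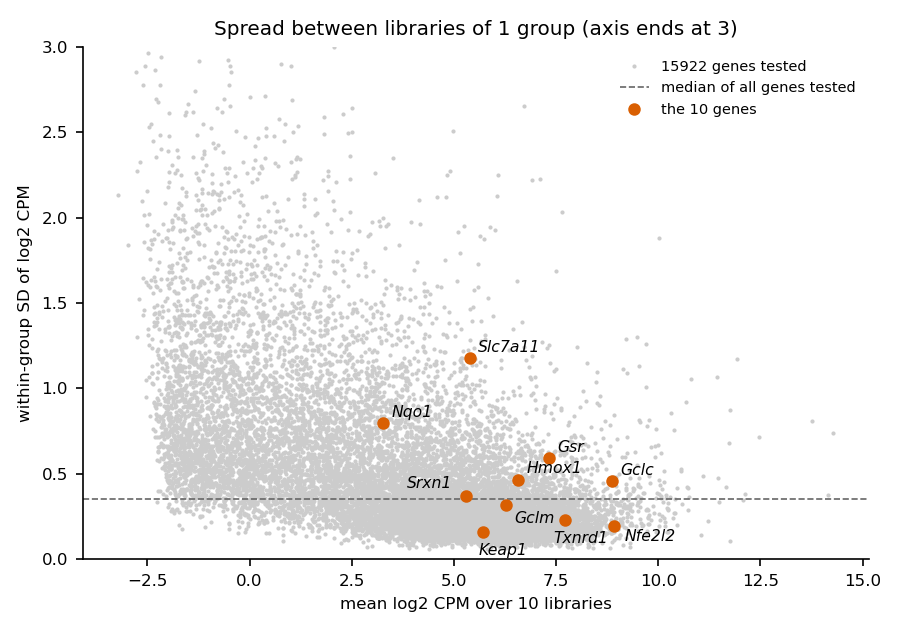
Within-group SD of log2 CPM (vertical axis) against mean log2 CPM (horizontal axis) for the 15922 genes tested (gray) and the 10 members (orange), of which Keap1 and Nfe2l2 lie low and Slc7a11 highest. The dashed line is the median of 0.35, and 30 genes above 3 are not drawn.

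Some libraries deviated in the same direction for most effectors. For each of the 8 effector genes (all members except Nfe2l2 and Keap1), the log2 CPM of a library was set against the mean of the gene over the 10 libraries. Control 1 was above the mean for 8 of 8 effectors, and the highest of all for Gclm, Gsr and Slc7a11, with a median deviation of 0.41. Glut1-KO replicate 5 was above it for 7 of 8, all but Srxn1, and the highest for Nqo1, Gclc and Hmox1, with a median of 0.62. At the other end, Glut1-KO replicate 2 was above the mean for 0 of 8 (median -0.33) and Control 5 for 1 of 8 (median -0.42). For Nfe2l2, Control 1 was the second highest library after Control 5, and Glut1-KO replicate 5 lay at -0.08 from the mean of the gene. For Keap1, Control 1 lay at -0.01 from the mean of the gene and Glut1-KO replicate 5 at 0.05.

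The summed level of the 6 epithelial markers was 5260 CPM in Control 1, 7260 CPM in Glut1-KO replicate 4 and 4990 CPM in replicate 5, and 2830 to 4310 CPM in the other 7 libraries. Alveolar type 2 markers, also epithelial, did not share this order. They summed to 54800, 66900 and 51800 CPM in these libraries, within 28400 to 79500 CPM over all 10. Club cell markers summed to 9640 CPM in Control 1, the highest of all, and to 988 CPM in Glut1-KO replicate 5, the lowest. The 12 genes of the dissociation stress list, immediate early and heat shock genes, summed to 6770 CPM in Control 1 and to 3890 CPM in Glut1-KO replicate 5, the lowest of the 10. Their part in the levels of the members was not tested.

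**Figure D4:**
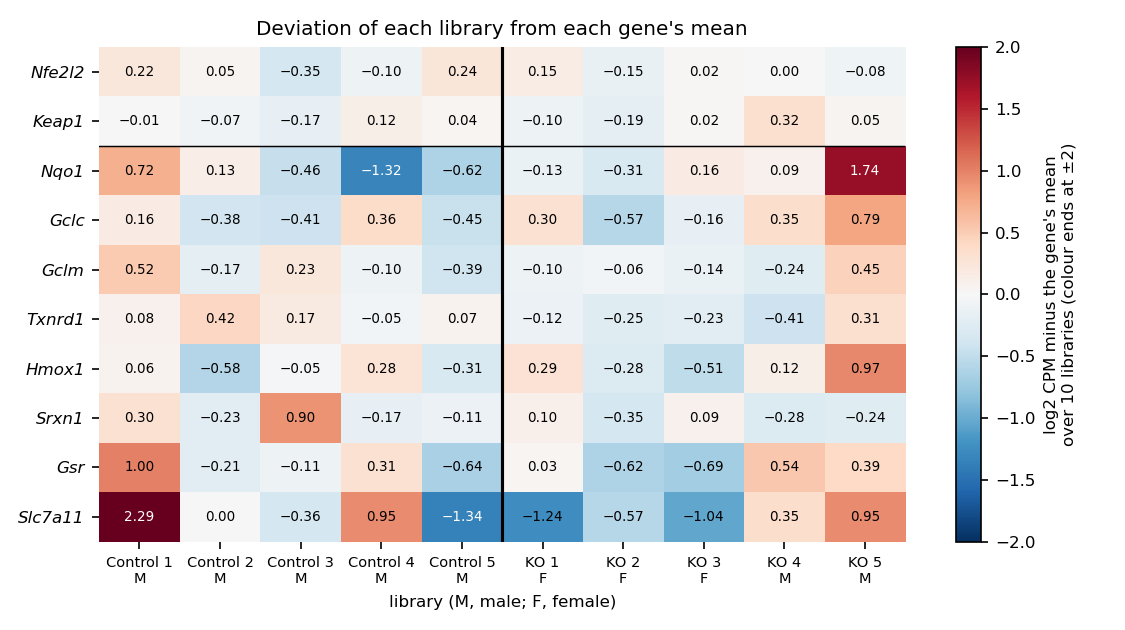
Log2 CPM minus the mean of the gene over the 10 libraries, for the 10 members (rows) in each library (columns, M male and F female), with values in the cells. The columns of Control 1 and Glut1-KO replicate 5 are above the mean for 8 and 7 of the 8 effectors, while the rows of Nfe2l2 and Keap1 lie between -0.35 and 0.32.

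Correlations over the 10 libraries are given as descriptions, since their points share these libraries. Over the 28 pairs of effectors the median Pearson r of log2 CPM was 0.40 (from -0.20 to 0.87, 24 above 0), and over all pairs of genes tested it was -0.001. Without Control 1 and Glut1-KO replicate 5, left out after the values were seen, the median of the 28 pairs was -0.006. The closest pairs were Gclc with Hmox1 (r = 0.867, and 0.771 without those libraries), Gsr with Slc7a11 (0.865 and 0.714) and Gclc with Gsr (0.716 and 0.802). The pair Gclm with Slc7a11 had 0.696 and 0.162, and Nqo1 with Gclm 0.630 and -0.098. Those libraries were extreme for the effectors, so lower values without them come in part from their choice. Spearman's rho over all 10 libraries was 0.479 and 0.382 for these pairs, with a median of 0.309 over the 28. Nfe2l2 mRNA had a median r of -0.003 with the 8 effectors, and Keap1 mRNA of 0.174.

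For each member the genes whose log2 CPM was most like it over the 10 libraries were picked from all genes tested, so that high values of r are found for any gene. They were Hapln3 (r = 0.868) and Rpl13 (0.867) for Nfe2l2, and 1700049G17Rik (0.944) and Hexa (0.921) for Keap1. For the glutathione genes they were Prorsd1 (0.952) and 2310045N01Rik (0.946) for Gclc, Ifitm1 (0.928) and 9930013L23Rik (0.890) for Gclm, Cdh1 (0.970) and Spcs3 (0.964) for Gsr, and Sec63 (0.955) and Car12 (0.939) for Slc7a11. Cdh1 is E-cadherin, one of the epithelial markers above. For the rest they were Prdm4 (0.955) and Hmg20b (0.951) for Txnrd1, Gm5422 (0.936) and Med15 (0.914) for Srxn1, Gm6316 (0.893) and Cct3 (0.891) for Nqo1, and 2510046G10Rik (0.921) and Cacnb2 (0.918) for Hmox1. None of these 20 genes was itself a member.

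Because sex and genotype were partly confounded, the libraries labelled Glut1-KO were also compared by labelled sex in a limma fit with 3 groups. At an adjusted p under 0.05 it called 0 of 10 members for female Glut1-KO against Control (0.0691% of all genes), 0 for male Glut1-KO against Control (0.0188%) and 0 for female against male Glut1-KO (0.0502%). At an unadjusted p under 0.05 the member counts were 0, 3 and 0 of 10, against 14.6%, 11.1% and 18.6% of all genes. The 3 were Nqo1, Gclc and Hmox1 in the male libraries. In a limma fit with male libraries only, 1 member had an unadjusted p under 0.05, Gclc with 0.034. There the unadjusted limma p was 0.0547 for Nqo1 and 0.052 for Hmox1. These 2 male libraries share a name number and have the Slc2a1 levels of Controls. Sex is the same in their contrast with the Controls, which were all male, but label and name number cannot be told apart there. Between female and male Glut1-KO libraries, sex, name number and Slc2a1 level cannot be told apart.

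Against Controls, Nqo1 averaged 21.1 CPM in the male and 9.07 CPM in the female libraries labelled Glut1-KO, with 8.64 CPM in Controls. The male difference was 1.28 log2 units (SE 0.51, limma adjusted p = 0.413), of which replicate 5 with 32.0 CPM carried more than replicate 4 with 10.2 CPM. Gclc averaged 705 CPM in the male and 438 CPM in the female libraries (male difference 0.71, SE 0.29, limma adjusted p = 0.427). Hmox1 averaged 145 and 87.2 CPM (male difference 0.67, SE 0.30, limma adjusted p = 0.449). Slc7a11 averaged 67.1 CPM in the male and 22.0 CPM in the female libraries, and the female libraries were 1.25 log2 units below Controls (SE 0.73, limma adjusted p = 0.449).

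Set directly against each other, the female libraries labelled Glut1-KO were lower than the male ones by 1.61 log2 units for Slc7a11 (SE 0.88, limma adjusted p = 0.345), 1.08 for Nqo1 (SE 0.56, adjusted p = 0.324) and 0.89 for Gsr (SE 0.41, adjusted p = 0.279). Gclc and Hmox1 differed by 0.71 each (adjusted p = 0.273 and 0.274, limma). The values did not overlap between the sexes for 4 of 10 members, Keap1, Gclc, Gsr and Slc7a11, against 40.8% of all genes, so the members' share was near that of all genes.

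The wider pathway was described with 91 further genes in 6 lists, of which 89 were tested. None passed the threshold with limma, 5 of 89 had an unadjusted p under 0.05 (7.68% of all genes) and the groups did not overlap for 3 of 89 (1.84% of all genes). DESeq2 called 1 of them, Mafk (log2 fold change -0.61, adjusted p = 0.02), against 1.32% of all genes, and had 7 of 89 at an unadjusted p under 0.05, against 10.8% of all genes. In these fits the share without overlap was above that of all genes, and both shares at an unadjusted p were below it. All Controls were male, so with sex as a covariate the limma group term compared only the male Glut1-KO libraries with Controls. In that limma fit 22 of 89 had an unadjusted p under 0.05, against 11.1% of all genes, and 0 passed the threshold. With male libraries only it was 15 wider genes, in a limma fit where 1556 of 16762 genes had such a p. With female Glut1-KO libraries only it was 13, in a limma fit with 2260 of 16430 genes. The median log2 fold change was 0.09 over the 89 genes (60 above and 29 below 0), beside -0.005 over all genes tested.

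Among 13 other regulators, partners and ligase components of NRF2, 5 fold changes were above and 8 below 0 (median -0.16). Mafk, a small Maf protein that pairs with NRF2 or with the repressor BACH1 on the antioxidant response element, was at 53.0, 57.5, 51.0, 50.0 and 54.1 CPM in Controls and at 44.0, 34.7, 24.8, 31.0 and 39.0 CPM in Glut1-KO replicates 1 to 5. Every Glut1-KO library, of both sexes, was below every Control. The log2 fold change was -0.64 (SE 0.15, 95% interval -0.96 to -0.32), with an adjusted p of 0.351 in limma and from 0.02 to 0.622 over the 22 other settings, in each of which it was below 0. Fbxw11, a β-TrCP adaptor that can direct NRF2 to degradation apart from KEAP1, ran from 133 to 161 CPM in Controls and from 116 to 129 CPM in all Glut1-KO replicates (log2 fold change -0.24, SE 0.09, limma adjusted p = 0.57).

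The thioredoxin and peroxide list had 13 of 17 fold changes above 0 (median 0.07). Prdx3, the mitochondrial peroxiredoxin, was at 110, 100, 109, 117 and 92.3 CPM in Controls and at 133, 133, 126, 184 and 152 CPM in Glut1-KO replicates 1 to 5. All Glut1-KO libraries were above all Controls, with a log2 fold change of 0.45 (SE 0.12, 95% interval 0.18 to 0.72, limma adjusted p = 0.419, and 0.051 to 0.66 over the 22 other settings). Msrb1, a methionine sulfoxide reductase, had a fold change of 0.32 (limma adjusted p = 0.599) with overlapping groups.

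In the other lists the groups overlapped for all genes tested. Of 16 glutathione genes 12 had fold changes above 0 (median 0.05), and the smallest p belonged to Slc7a7 (0.24, limma adjusted p = 0.768) and Gss, glutathione synthetase (-0.21, 0.799). Of 8 NADPH genes 5 were above 0 (median 0.11), with the smallest p for the isocitrate dehydrogenases Idh1 (0.40, limma adjusted p = 0.531) and Idh2 (0.20, 0.799). Of 26 detoxification genes 18 were above 0 (median 0.17), with the smallest p for Nqo2 (-0.22, limma adjusted p = 0.692) and the aldo-keto reductase Akr1b8 (0.49, 0.74). Akr1b8 was at 301 and 432 CPM in Glut1-KO replicates 4 and 5 and at most at 202 CPM in the other 8 libraries. Of 9 iron and heme genes 7 were above 0 (median 0.11), with the ferritin chains Ftl1 (0.37, limma adjusted p = 0.696) and Fth1 (0.38, 0.711) first, and Ftl1 was highest in Glut1-KO replicate 5 with 873 CPM.

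**Figure D5:**
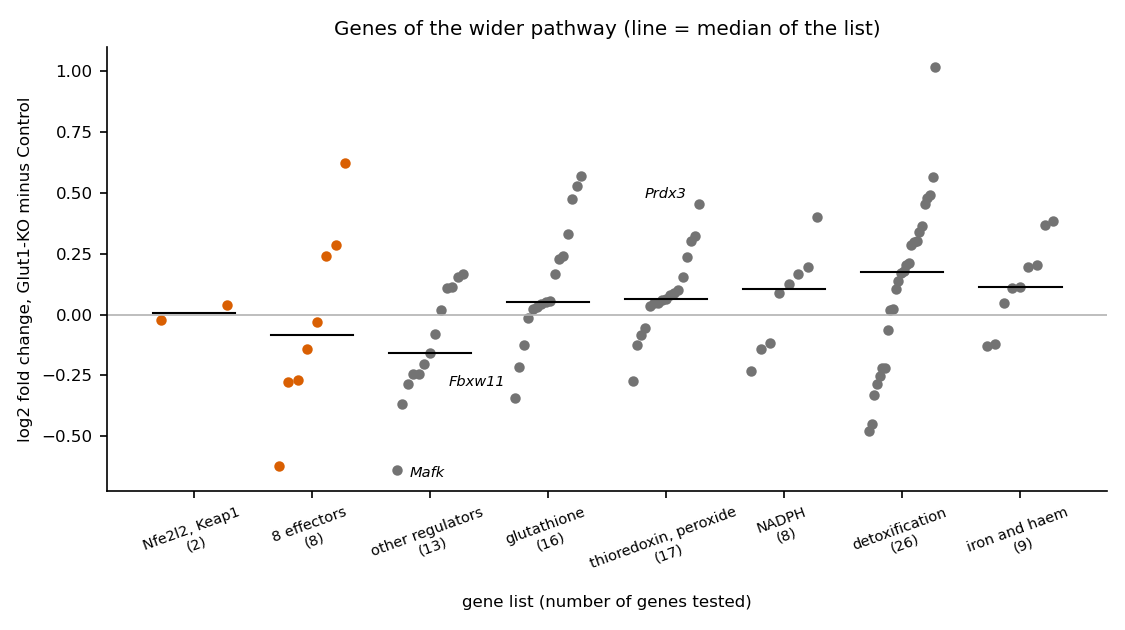
Log2 fold change of the libraries labelled Glut1-KO against Controls (vertical axis) for each gene tested in 8 lists (horizontal axis, number of genes in brackets), members in orange, with the median of each list as a line. Mafk, Fbxw11 and Prdx3, the 3 genes whose groups do not overlap, are named, and none passed the threshold in limma.

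Markers of other cells are given beside these results because the libraries came from a depleted cell suspension. Ptprc, the gene of the CD45 antigen used for depletion, was at 2.30 to 3.26 CPM in Controls and at 5.05 to 10.1 CPM in all Glut1-KO replicates (log2 fold change 1.47, SE 0.25, limma adjusted p = 0.23). Of the 16 leukocyte markers 13 were tested, 10 of them had fold changes above 0 and 7 an unadjusted p under 0.05, and the groups did not overlap for 4, against 7.68% and 1.84% of all genes. The sum of all 16 ran from 1460 to 14200 CPM in Controls and from 3210 to 10900 CPM in the Glut1-KO replicates. Lyz2 and Cd74, which alveolar epithelium also expresses, made up most of it, and without them, a choice made after the values were seen, the sums were 41.9 to 63.4 and 65.1 to 88.0 CPM. Among the myeloid genes, Csf1r ran from 3.82 to 5.45 CPM in Controls and from 5.21 to 12.5 CPM in Glut1-KO replicates, Itgax from 2.45 to 3.71 and from 3.56 to 11.3 CPM, and Cd68 from 15.9 to 19.8 and from 15.4 to 29.0 CPM, whereas Marco and the T cell gene Cd3e were at or near 0. Mrc1 ran from 5.77 to 28.4 and from 4.83 to 22.1 CPM. The log2 fold changes below 0 were those of Mrc1 (-0.26), S100a8 (-0.55) and Lyz2 (-0.70), and that of Itgam was 0.14. The dissociation stress list was below 0 for 12 of 12 genes, of which 5 had an unadjusted p under 0.05 and 3 did not overlap, against 7.68% and 1.84% of all genes (smallest limma adjusted p = 0.23, sums of 6040 to 8160 and 3890 to 6570 CPM). Fold changes were above 0 for 8 of 8 endothelial markers (median 0.67) and below 0 for 8 of 8 ciliated (median -0.95) and 6 of 6 club cell markers (median -0.56). Sums of endothelial markers were 106 to 398 CPM in Controls and 164 to 545 CPM in the Glut1-KO replicates, of fibroblast markers 108 to 395 and 76.5 to 423 CPM, of ciliated cell markers 11.5 to 267 and 14.8 to 59.0 CPM, of erythroid markers 237 to 1460 and 189 to 751 CPM, and of proliferation genes 235 to 535 and 216 to 364 CPM. Their part in the values of Mafk, Fbxw11, Prdx3 and the members was not tested.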

How the data were processed

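Polyadenylated RNA of the CD45-depleted tumor fraction was sequenced in 10 libraries. The authors prepared stranded, single-end libraries, trimmed them with Cutadapt and aligned them with HISAT2 to mm10. The submitters' processing notes list bcl2fastq 2.17, cutadapt 1.4.2, HISAT2, featureCounts 1.4.4 and edgeR. The annotation release and use of strand are not given in the sources used here. The deposited table holds raw counts per gene, and its 10 columns equalled the 10 single-library files. Symbols starting with mt-, those of mitochondrially encoded genes, had 0 counts in sum. A sum of 0 would also result if the table held no such row.

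Members and lists were chosen with earlier results of these data known. Counts were filtered with filterByExpr (minimum count 10, total 15) and fitted by group with TMM (edgeR 4.0.16), voom (prior count 0.5) and limma 3.58.1 in R 4.3.3, with Benjamini-Hochberg adjustment over all 15922 genes and a threshold of 0.05. This scheme follows the study's methods except for its filter on TPM, which was tried as an alternative, as were edgeR's quasi-likelihood test, DESeq2 1.42.0 and other scalings, covariates and subsets. Each member also had a 2-sided exact permutation test on log2 CPM over 252 assignments, whose smallest possible p is 0.00794. Levels are given as CPM with SD as the error. RPKM used TMM-scaled CPM and the union of exons of GENCODE M21 (GRCm38), which holds 96.6% of the gene identifiers. The fits were tested on simulated data.

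The text names all members, the 2 genes of smallest p per wider list, genes past the threshold or without overlap, the 2 genes most like each member by Pearson r, and Slc2a1 and Ptprc. Abcc2 and Hrg did not pass the filter. Some items are not reported here.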

Additional observations from a re-analysis of the deposited data

Results flagged for a closer look

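Among the 20 groups of 5 values formed by the 10 members and both labels, 2 held a library whose gap to the nearest of the others, divided by the whole range, exceeded Dixon's limit of 0.71. Chance gives this in about 5% of groups, and both values came from the same library, Glut1-KO replicate 5. Nqo1 was at 32.0 CPM there, and at 7.73 to 10.7 CPM in the other 4 libraries labelled Glut1-KO (gap over range 0.877). Gclm was at 105 CPM there, and at 65.0 to 73.9 CPM in the other 4 (gap over range 0.779).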

How the results depend on the processing

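With every alternative run, 0 members passed the threshold. The number of genes passing over the whole table was 0 with limma and 210 with DESeq2, 3 with sex as a covariate, 1 with male libraries only, 9 with female Glut1-KO libraries only, 2 with libraries sharing a name number summed, and 0 to 1 when each replicate was left out. DESeq2 called 1 wider pathway gene. Wider genes with an unadjusted limma p under 0.05 numbered 5 in the main fit and 22 with sex as a covariate. With that covariate the group term compared only the male Glut1-KO libraries with Controls, as all Controls were male. Of 219 recomputed member fold changes 197 kept their sign and 22 did not, all of them past no threshold. Nfe2l2 was 0.054 with sample quality weights, 0.068 with name numbers summed and -0.12 to 0.033 with 1 replicate left out. Keap1 was 0.20 with sex as a covariate and with male libraries only. It was -0.025 with quality weights, -0.062 with female Glut1-KO libraries only and -0.033 to 0.092 with 1 replicate left out. Gclm was 0.10 with sex as a covariate, 0.10 with male libraries only and -0.14 to 0.10 with 1 replicate left out. Hmox1 was -0.039 with female Glut1-KO libraries only. Gsr was 0.39 with sex as a covariate and with male libraries only, and -0.32 to 0.10 with 1 replicate left out. Slc7a11 was 0.36 with sex as a covariate and with male libraries only, -1.25 with female Glut1-KO libraries only, -1.11 with name numbers summed (limma adjusted p = 0.729), and -1.04 to -0.13 with 1 replicate left out. The cause was not tested. A replicate block left the counts at 0 and changed no call. Samples with the same number had correlations of deviations of 0.042, -0.088, 0.029, 0.197 and -0.132, and 1 of 5 correlated best with its own number, so they share only a number. Under a filter of 20 TPM, 7290 genes and 9 members were tested, without Slc7a11. Levels by library totals moved by less than 1 SD in 20 of 20 values. The lowest count of a member in a library was 150, for Nqo1.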
